A study of Xenopus laevis with 16 samples.

Results

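Claudins and the other proteins of the tight junction were followed at the RNA level in animal caps, explants of the prospective ectoderm of Xenopus laevis embryos. The set holds every deposited gene row whose name begins with cldn and a number, or with ocln, tjp and a number, marveld2, marveld3, cgn, f11r, jam2 or jam3. The rule found 59 rows among 45038. They comprise 38 claudins, 5 genes of the MARVEL proteins, 6 of the junctional adhesion molecules (JAMs) and 10 of the cytoplasmic scaffolds. The scaffold gene cgnl1 entered because its name begins with cgn. Xenopus laevis is tetraploid and carries an L and an S copy of many genes. The letters name the longer and the shorter chromosome of a pair, not the length of the gene. The 59 rows thus stand for 33 gene names, of which 26 have both copies.

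At the 2-cell stage 20 pg of 1 of 3 mRNAs had been injected into the animal pole of both cells of the embryo. The first, GR-neurog2, encodes Neurog2, and the second, ptf1a-GR, encodes Ptf1a. The product of the remaining mRNA, ptf1aW224A/W242A-GR, is Ptf1a with the substitutions W224A and W242A (Mutant below). Ptf1a and Neurog2 are basic helix-loop-helix transcription factors that drive neuronal fates, and the GR domain makes a fusion protein depend on dexamethasone. Caps were cut from blastula embryos and cultured in dexamethasone until 6 h or 25 h had passed. The caps used as controls were also treated with dexamethasone, and whether they had received any mRNA is not clear from the labels. The injected proteins were overexpressed in whole caps, so each library is a mixture of the cell types of a cap. The 8 groups (4 kinds of cap at 2 times) had 2 libraries each, 16 in all, and nothing says that the 2 came from separate batches of embryos. Total counts ranged from 31436437 to 228346016 per library with a median of 63536185, and the 59 genes together took between 0.417% and 0.537% of the counts of each library.

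Tight junctions seal the space between neighbouring epithelial cells near their apical border. Claudins are small membrane proteins whose strands form the seal and set which ions pass. Occludin (ocln), tricellulin (marveld2) and marveld3 share the MARVEL membrane domain, and JAMs are adhesion proteins of the immunoglobulin family. The ZO proteins (tjp1 and tjp3 among their genes), cingulin (cgn) and paracingulin (cgnl1) lie under the membrane and tie the strands to actin and myosin. In the frog embryo such junctions seal the outer layer of the ectoderm, which later becomes the larval epidermis.

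Levels are given as CPM, the count of a gene relative to the total of its library, with library sizes scaled by TMM, in the order of replicates 1 and 2. Levels of different genes are compared only as FPKM, which is CPM divided by the length of the exons in kilobases. A gene was called where its adjusted p, from edgeR's quasi-likelihood test with Benjamini-Hochberg adjustment over all 30384 genes tested, was under 0.05. Log2 fold changes are followed by their SE. Of the 59 genes, 45 had enough counts to be tested. The other 14 were all claudins. Among these cldn12.L, cldn12.S, cldn14.L, cldn22.S and cldn24.L had 0 counts in all 16 libraries, and the other 9, copies of cldn2, cldn8.1, cldn14, cldn15.1, cldn18, cldn19, cldn22 and cldn24, had between 2 and 48 counts over the 16 libraries.

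By length, claudins were the most abundant members. The highest mean FPKM over the 8 groups was that of cldn4.L, at 284, with group means from 88.3 to 557. It was followed by cldn7.L at 251, cldn6.2.L at 225, cldn4.S at 187, cldn6.2.S at 174, cldn6.1.L at 159 and cldn1.S at 132. Among the JAM genes f11r.L (JAM-A) had a mean FPKM of 128 and f11r.S of 75.0. Among the MARVEL genes ocln.L had 104 and ocln.S 41.5. Scaffolds were lower, led by cgn.L at a mean FPKM of 34.7 and cgnl1.L at 21.2.

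The make-up of claudin RNA in control caps changed between 6 h and 25 h, most in cldn6, cldn4 and cldn1. Copies of cldn4 and cldn7 were present at both times. The shares below depend on the exon lengths of the gene models. At 6 h the copies of cldn6 made up 60.3% and 62.0% of the summed claudin FPKM in the 2 control libraries. At 25 h this share was 9.51% and 12.2%. Claudin-6 is known in mammals as a claudin of embryonic epithelia. The share of cldn4 stood at 11.7% and 11.2% in control caps at 6 h and at 42.6% and 44.98% at 25 h. That of cldn1, a barrier claudin of mouse skin, stood at 0.0255% and 0.00743% at 6 h and at 26.0% and 21.6% at 25 h. The cldn7 copies, at 26.4% and 24.6% and then at 17.6% and 15.9%, changed least among these families. The total moved less than its make-up: summed claudin FPKM was 1427 ± 36.2 (SD, n = 2) in control caps at 6 h and 2006 ± 211 (SD, n = 2) at 25 h.

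**Figure D1:**
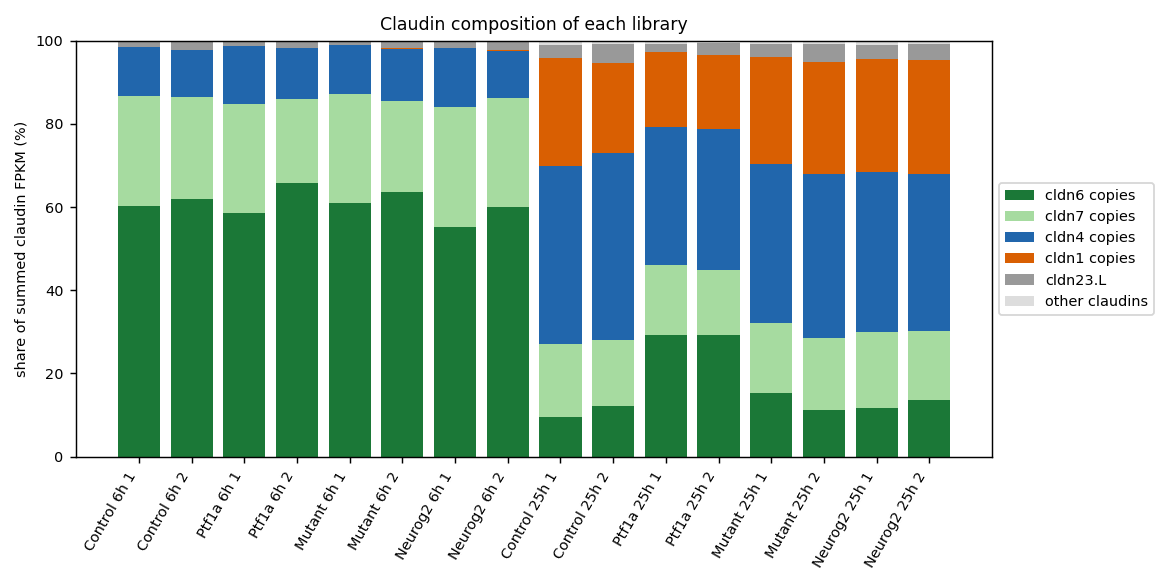
Stacked bars show the share of summed claudin FPKM (%) taken by the copies of cldn6, cldn7, cldn4 and cldn1, by cldn23.L and by all other claudins in each of the 16 libraries. The cldn6 share lies between 55.3% and 65.8% in the 8 libraries of 6 h, and at 25 h the 2 Ptf1a libraries, at 29.3% and 29.2%, lie above the other 6, which range from 9.51% to 15.3%.

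In control caps 16 of the 45 tested genes rose from 6 h to 25 h and 11 fell. Of all 30384 genes tested, 28.9% rose and 30.4% fell, against 35.6% and 24.4% of the members. The median log2 fold change was 0.38 over the 45 members and -0.14 over all genes. By role, 8 of the 24 tested claudins rose and 7 fell. Of the 5 MARVEL genes 2 rose and 2 fell, of the 6 JAM genes 1 rose, and of the 10 scaffold genes 5 rose and 2 fell.

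Among claudins, the copies of cldn1 rose most. The level of cldn1.L was 0.289 and 0.280 CPM at 6 h and 558 and 642 CPM at 25 h, a log2 fold change of 11.03 ± 0.55 (adjusted p = 2.1e-08, edgeR). Its partner cldn1.S went from 0.289 and 0 CPM to 303 and 247 CPM (10.70 ± 0.78, adjusted p = 2.8e-07, edgeR). Both copies were thus nearly silent in the 6 h controls and among the most abundant claudins in the 25 h controls. Of cldn4.L there were 257 and 215 CPM at 6 h and 1362 and 1615 CPM at 25 h (2.66 ± 0.29, adjusted p = 6e-06, edgeR). The other copy, cldn4.S, rose by 2.10 ± 0.19 from 180.2 and 190.1 to 694 and 898 CPM.

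A group of claudins with lower levels rose with them. In 6 h controls cldn34.S had 0 and 0.0933 CPM, and in 25 h controls 14.7 and 11.9 CPM (8.32 ± 1.01, adjusted p = 1.7e-05, edgeR). For cldn34.L the levels were 0.0643 and 0 CPM, then 8.005 and 5.62 CPM (7.49 ± 0.89, adjusted p = 1.4e-05, edgeR). Only 2 counts of cldn8.1.L were found over both 6 h controls against 414 at 25 h, a count ratio of 278 with an exact 95% interval of 76.4 to 2301 that covers counting error only. Its levels were 0 and 0.0466 CPM, then 5.36 and 5.14 CPM. For cldn23.L the values were 15.5 and 21.4 CPM at 6 h and 49.9 and 84.9 CPM at 25 h, a rise of 1.87 ± 0.34 on the log2 scale.

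The falling claudins were mostly copies of cldn6 and cldn5, the latter a claudin of blood vessel walls in mammals. From 242.5 and 185 CPM at 6 h, cldn6.1.L fell to 4.77 and 5.93 CPM (-5.32 ± 0.45, adjusted p = 7.7e-07, edgeR). The level of cldn6.2.S was 184 and 232 CPM, then 24.3 and 40.7 CPM (-2.68 ± 0.30, adjusted p = 9.2e-06, edgeR), and cldn6.2.L went from 272 and 261 to 46.6 and 54.1 CPM (-2.40 ± 0.28). Another gene of the family, cldn6.S, went from 5.14 and 5.92 to 0.207 and 0.319 CPM (-4.43 ± 0.66, adjusted p = 8.8e-05, edgeR). The exception in the family was cldn6.1.S, with 132 and 156 CPM at 6 h and 138 and 222 CPM at 25 h, which was not called (0.32 ± 0.33, adjusted p = 0.42, edgeR).

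Of cldn5.S there were 8.15 and 11.5 CPM at 6 h and 0.113 and 0.558 CPM at 25 h (-5.00 ± 0.67, adjusted p = 4.1e-05, edgeR). For cldn5.L the 6 h controls held 122 counts and the 25 h controls 2, a count ratio of 45.5 (exact 95% interval 12.3 to 380, counting error only), and its call was lost without control replicate 1 of 25 h (-3.84, adjusted p = 0.067, edgeR). With 45 counts at 6 h and 0 at 25 h, cldn3.S was at least 11.2-fold lower at 25 h, with the floor set at 3 counts for both 25 h libraries together. Its call was lost without 6 h control replicate 1 and without either 25 h control (log2 fold changes from -7.998 to -7.51, adjusted p from 0.053 to 0.11, edgeR). Neither cldn7.L (397 and 357 CPM, then 347 and 359.5 CPM, -0.09 ± 0.23) nor cldn7.S (126 and 112 CPM, then 102 and 108 CPM, -0.18 ± 0.18) was called. With a block within each time cldn7.S stood at -0.38 (adjusted p = 0.044, edgeR). That block does not pair 6 h with 25 h libraries, so this value is not read as a change.

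**Figure D2:**
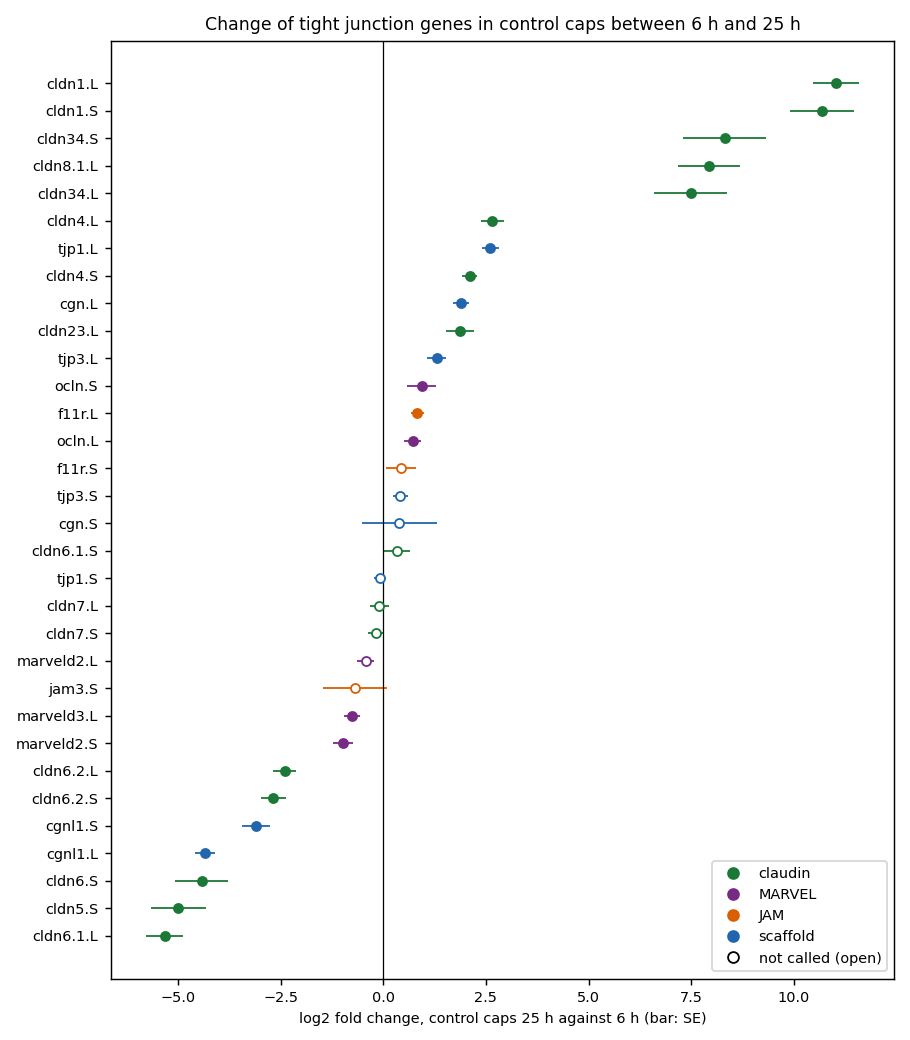
Points show the log2 fold change (bar: SE) of control caps at 25 h against 6 h for 32 tested members with a mean log2 CPM above 0, coloured by role, with filled points for called genes. The claudins spread from -5.32 for cldn6.1.L to 11.03 for cldn1.L, and the other members lie between -4.34 and 2.61.

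Scaffolds moved in both directions as well. The level of tjp1.L (ZO-1) was 27.8 and 27.5 CPM in 6 h controls and 160.5 and 177 CPM in 25 h controls (2.61 ± 0.21, adjusted p = 5e-07, edgeR). Cingulin, cgn.L, rose from 86.5 and 105 to 331 and 381 CPM (1.89 ± 0.19). Also called higher was tjp3.L (1.30 ± 0.23). Paracingulin did the reverse: cgnl1.L fell from 195 and 209 CPM to 11.4 and 8.40 CPM (-4.34 ± 0.24, adjusted p = 4.6e-08, edgeR), and cgnl1.S from 91.0 and 91.1 to 11.05 and 10.1 CPM (-3.10 ± 0.35, adjusted p = 8.3e-06, edgeR).

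Among membrane proteins other than claudins the changes were smaller. The JAM-A gene f11r.L rose from 201 and 222 to 362 and 392.3 CPM (0.83 ± 0.16, adjusted p = 0.00064, edgeR). Occludin had 257 and 220.4 CPM of ocln.L at 6 h and 429 and 354 CPM at 25 h (0.71 ± 0.21, adjusted p = 0.01, edgeR), and ocln.S rose by 0.93 ± 0.34. Both ocln calls were lost without 6 h control replicate 2 or without 25 h control replicate 1 (log2 fold changes of 0.56 to 0.73, adjusted p from 0.084 to 0.27, edgeR). Tricellulin fell in its S copy, from 81.9 and 65.5 to 44.0 and 30.8 CPM (-0.98 ± 0.25), and marveld3.L fell from 33.8 and 36.1 to 19.1 and 22.3 CPM (-0.75 ± 0.20). These calls were lost without 25 h control replicate 2 for marveld2.S (-0.74, adjusted p = 0.059, edgeR) and without 25 h control replicate 1 for marveld3.L (-0.65, adjusted p = 0.057, edgeR). With the replicate number as a block tjp3.S (0.42, adjusted p = 0.041, edgeR), cldn10.L (-2.07, adjusted p = 0.045, edgeR) and cldn18.L (adjusted p = 0.032, edgeR) were called too. The level of cldn18.L was at most 1.35 CPM in any library. A block within each time does not pair 6 h with 25 h libraries, and its estimates over time differed from the main fit. With it cgn.S stood at 1.88, against 0.38 in the main fit, and marveld2.L at -0.58, against -0.42. The calls it added over time, of cldn10.L, cldn18.L, marveld2.L, cldn7.S and cgn.S, are therefore not read as changes.

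Genes of the wider junction were read from 3 lists, to be set beside the 28.9% of all genes tested that rose in control caps and the 30.4% that fell. Of 56 tested copies of other tight junction and polarity genes, 21 rose and 11 fell in control caps. Those that moved most were llgl1.S (-4.59 ± 0.28) and llgl1.L (-3.40 ± 0.23), copies of a basolateral polarity gene, marveld1.L (4.33 ± 1.18) and crb2.S (3.25 ± 0.70), a Crumbs gene of the apical side. Of 30 copies of epithelial regulators and proteins acting on claudins, 20 rose, among them tp63.L (8.45 ± 0.30), a regulator of basal epidermal cells, and 2 fell. Of 31 copies of adherens junction and desmosome genes, 14 rose and 8 fell.

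Homeologous copies did not always keep their proportions. In control caps 15 of the 18 pairs with both copies tested changed in the same direction, 8 pairs were called the same way in both copies and 0 pairs were called in opposite ways. The share of the L copy in the summed CPM of a pair was then compared between 6 h and 25 h over all 16 libraries, a comparison chosen after the values had been seen. An exact two-sided permutation test exchanged the times within each kind of cap (1296 arrangements, smallest possible p 0.00154). It used log2 ratios with a pseudocount of 0.5 CPM and took the 16 libraries as separate units. Libraries of the same replicate number deviated together across kinds of cap, so its p can be too small. The f11r L share at 6 h, for example, was 47.9% to 51.1% in replicates 1 and 59.8% to 61.1% in replicates 2. In replicates 2 of 25 h it was 56.9% to 62.5%, so the f11r result rests on replicates 1. With the 2 replicate numbers of each time as the units, an exact permutation test could not go below p = 0.333. After Benjamini-Hochberg adjustment over the 18 pairs 11 passed. In 7 of these both copies averaged at least 1 CPM at both times and 5 CPM at one, and among them 4 had a higher and 3 a lower L share at 25 h. In the other 4 (cldn1, cldn3, cldn5 and cldn34) a copy was near or below the pseudocount at one time or both, and no direction is given for them. The same counts over all L and S pairs of the data are not given here. The pair counts are therefore not read as particular to tight junction genes. Among the 3 pairs with a lower L share at 25 h was ocln, at 69.0% to 75.7% at 6 h. At 25 h its L share was 55.4% and 55.9% in Ptf1a caps and 65.3% to 73.7% in the other caps, so this result rests largely on Ptf1a caps. For cldn5 the tested log2 ratio was higher by 1.52 at 25 h, while the median L share was 12.5% at 6 h and 10.6% at 25 h. Reads that could map to both copies were assigned by the authors in a way not given in the sources used here, so the split within a pair is uncertain to that extent.

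The largest shift was in cldn6.1. Its L share was 48.3% to 71.2% in the 8 libraries of 6 h and 2.41% to 15.5% in the 8 of 25 h (exact permutation adjusted p = 0.004), with no overlap. On chromosome 9_10L of build 9.1 cldn6.1.L (114742009 to 114745337, plus strand) lies beside cldn6.2.L (114730763 to 114734752, minus strand). The S side holds cldn6.2.S (102075319 to 102076208), cldn6.S (102078891 to 102079871) and cldn6.1.S (102085978 to 102087452) on chromosome 9_10S. In the neighbouring pair cldn6.2 the L share went from 50.01% to 63.4% at 6 h to 50.8% to 70.5% at 25 h, with overlap (exact permutation adjusted p = 0.028). With the copies summed, cldn6.1 fell by 0.94 on the log2 scale in control caps, against -5.32 for the L copy alone.

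ZO-1 moved the other way. The L share of tjp1 was 29.4% to 35.1% at 6 h and 56.8% to 76.4% at 25 h, without overlap (exact permutation adjusted p = 0.004). While tjp1.L rose, tjp1.S stayed between 53.0 and 64.5 CPM in all 16 libraries. Paracingulin lost L share, from 68.1% to 72.1% at 6 h to 38.3% to 65.5% at 25 h, and tjp3 gained it, from 50.5% to 60.7% to 60.8% to 68.8% (exact permutation adjusted p = 0.004 for each). The pair cldn7, at 73.6% to 77.4% and 72.4% to 77.3%, gave no call (exact permutation adjusted p = 0.69).

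**Figure D3:**
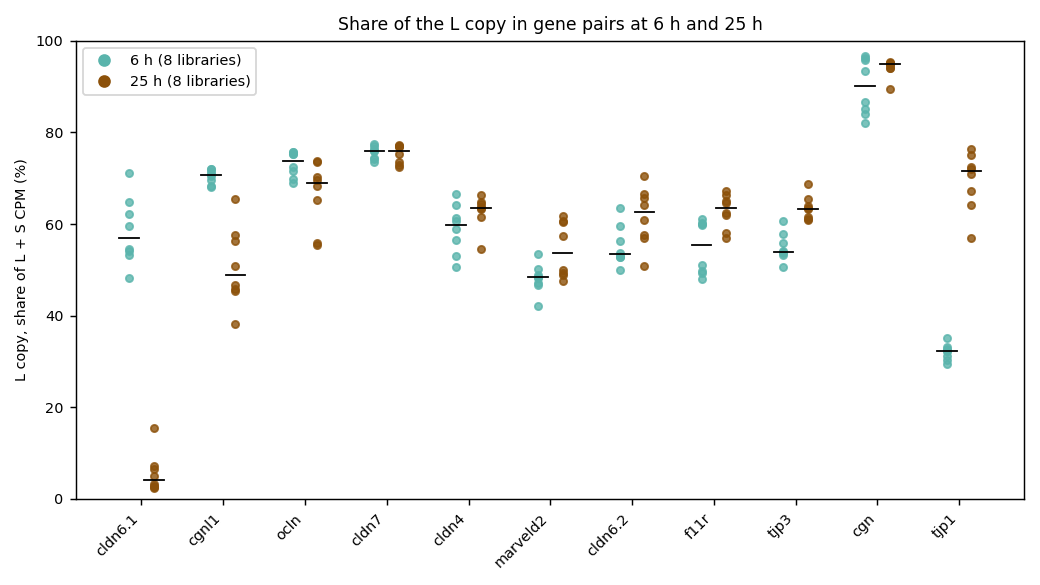
Each point is the L copy's share (%) of the summed CPM of both copies in 1 library, with 8 libraries of 6 h and 8 of 25 h and a line at the median, for 11 pairs whose copies both average at least 1 CPM at both times and 5 CPM at one. The median for cldn6.1 is 57.1% at 6 h and 4.13% at 25 h, and for tjp1 32.3% and 71.5%.

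After 6 h in dexamethasone edgeR called 0 of the 45 genes in each of the 3 comparisons with control caps (Ptf1a, Neurog2 and Mutant), and DESeq2 called 0. At an unadjusted p under 0.05 there were 4, 1 and 3 of the 45, against 2137, 1194 and 1981 of all 30384 genes tested. Of all genes Ptf1a had 0.885% called higher and 0.0165% lower. Neurog2 had 0.247% and 0.00329%, and the Mutant had 0.602% and 0.00329%. All 3 comparisons share the same control libraries. The member with the highest mean FPKM over the 8 groups, though not at 6 h, cldn4.L, had 257 and 215 CPM in controls, 428 and 338 with Ptf1a (0.70 ± 0.27, adjusted p = 0.53, edgeR), 415 and 227 with Neurog2, and 428 and 353 with the Mutant (0.73 ± 0.27, adjusted p = 0.51, edgeR). The groups did not overlap for Ptf1a and the Mutant. With Ptf1a cldn4.S had 276 and 329 CPM against 180.2 and 190.1 in controls (0.71 ± 0.18, adjusted p = 0.13, edgeR). With replicates paired within each time it was called (0.71, adjusted p = 0.043, edgeR).

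Also with that pairing cldn34.L was called with the Mutant at 6 h (2.90, adjusted p = 0.025, edgeR), at 0.358 and 0.174 CPM against 0.0643 and 0 CPM. One gene of the wider junction was called in all 3 comparisons at 6 h. The level of amotl2.L, an angiomotin family gene linked to junctions and Hippo signalling, was 15.9 ± 3.58 CPM (SD, n = 2) in controls. It was 103 ± 34.5 CPM with Ptf1a (2.69 ± 0.32, adjusted p = 0.0013, edgeR), 72.0 ± 15.5 CPM with Neurog2 (2.18 ± 0.32, adjusted p = 0.012, edgeR) and 102 ± 4.08 CPM with the Mutant (2.68 ± 0.32, adjusted p = 0.002, edgeR).

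At 25 h Ptf1a caps differed from control caps in 12 of the 45 genes. Higher were 5, copies of jam3 and of cldn6, and lower were 7, among them scaffolds and the claudins cldn34.L, cldn23.L and cldn4.L. Of all genes tested 11.9% rose and 8.62% fell, against 11.1% and 15.6% of the members. The median log2 fold change was -0.32 over the members and 0.08 over all genes. By role 3 claudins rose and 3 fell of 24, and 2 JAM genes rose of 6. In the unblocked fit 4 scaffold genes fell of 10 and 0 of 5 MARVEL genes were called. With replicates paired within each time, ocln.L (-0.59, adjusted p = 0.011), marveld2.L (-0.48, adjusted p = 0.047) and marveld2.S (-0.54, adjusted p = 0.022, all edgeR) were called lower. DESeq2's Wald test called the same MARVEL genes lower (adjusted p from 0.0052 to 0.042). Neither setting called ocln.S or marveld3.L. In the unblocked fit ocln.S had the opposite sign to ocln.L (0.35, not called), so the lower calls of occludin are those of its L copy.

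JAM-C was the member with the largest difference. The protein binds JAM-B and in mammals is found on endothelium and in the nervous system as well as in epithelia. Its S copy, jam3.S (chromosome 7S, 42400403 to 42447943, build 9.1), had 0.639 and 0.637 CPM in control caps and 29.5 and 28.4 CPM in Ptf1a caps (5.50 ± 0.89, adjusted p = 0.0013, edgeR). For jam3.L there were 0 counts in both controls and 150 in the Ptf1a caps, at least 25.1-fold higher with the floor set at 3 counts for both control libraries together. The 9.1 gene model of jam3.L is short, with 528 bases of exon and no annotated UTR. Its call was lost without either control library (adjusted p = 0.061 and 0.099, edgeR), while that of jam3.S was kept in every alternative run.

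Copies of cldn6 were the claudins that were higher. In Ptf1a caps cldn6.2.L had 205 and 224 CPM against 46.6 and 54.1 CPM in controls (2.09 ± 0.28, adjusted p = 0.00044, edgeR). For cldn6.2.S the levels were 103 and 93.6 CPM against 24.3 and 40.7 CPM (1.60 ± 0.29, adjusted p = 0.0027, edgeR). The level of cldn6.1.L was 21.5 and 16.6 CPM against 4.77 and 5.93 CPM (1.84 ± 0.39, adjusted p = 0.0061, edgeR), a call that was lost without 25 h control replicate 1 (1.69, adjusted p = 0.067, edgeR). With its more abundant S copy added, cldn6.1 was not called (0.01, adjusted p = 1, edgeR). All 3 genes were below their 6 h levels in the same caps, where cldn6.2.L for example had 423 and 367 CPM.

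Of the scaffolds, cgn.L had 165 and 159 CPM in Ptf1a caps against 331 and 381 CPM in controls (-1.13 ± 0.18, adjusted p = 0.0014, edgeR). The level of tjp1.L was 74.4 and 103 CPM against 160.5 and 177 CPM (-0.93 ± 0.20, adjusted p = 0.006, edgeR). Both had also risen with time in control caps. Called lower as well was cgnl1.S, at 6.74 and 3.73 CPM against 11.05 and 10.1 CPM (-1.02 ± 0.33, adjusted p = 0.045, edgeR). This call was lost without Ptf1a replicate 2 or either control (-1.08 to -0.65, adjusted p from 0.11 to 0.26, edgeR), and with the 8 libraries of 25 h alone.

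Claudins that were lower gave less stable calls. In Ptf1a caps cldn34.L had 1.87 and 1.16 CPM against 8.005 and 5.62 CPM (-2.17 ± 0.65, adjusted p = 0.033, edgeR). For cldn4.L the levels were 705 and 940.1 CPM against 1362 and 1615 CPM (-0.86 ± 0.27, adjusted p = 0.042, edgeR). Each missed the threshold without any 1 of the 4 libraries (cldn34.L from -2.60 to -1.87, adjusted p from 0.07 to 0.18, and cldn4.L from -1.08 to -0.69, adjusted p from 0.053 to 0.2, edgeR). At 25.5 and 39.7 CPM against 49.9 and 84.9 CPM, cldn23.L was called (-1.05 ± 0.33, adjusted p = 0.042, edgeR) but not without Ptf1a replicate 1 or control replicate 2 (-0.78 and -0.61, adjusted p = 0.27 and 0.33, edgeR).

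The number of lower genes depended on the setting more than the number of higher ones. Against 7 members and 2619 of all genes, it was 10 members and 3620 of all genes with the replicate number as a block, which added cldn1.L (-0.95, adjusted p = 0.0081), ocln.L (-0.59, adjusted p = 0.019) and tjp3.L (-0.66, adjusted p = 0.019, all edgeR). It was 15 with replicates paired within each time (4994 of all genes), 11 with DESeq2's size factors (3350) and 14 with DESeq2's Wald test (4310). The pairing within each time also added 2 higher genes, cldn3.L (2.81, adjusted p = 0.028, edgeR) and cldn3.S (adjusted p = 0.049, edgeR), the latter at 0.154 and 0.0439 CPM against 0 in both controls. In the unblocked fit cldn1.L, with 265 and 366 CPM against 558 and 642 CPM, was not called (-0.93 ± 0.35, adjusted p = 0.083, edgeR), and the Ptf1a and control libraries did not overlap. Occludin ocln.L had 274 and 245 CPM against 429 and 354 CPM (-0.59 ± 0.21, adjusted p = 0.062, edgeR). Both tjp1.S (56.5 and 57.9 CPM against 53.2 and 55.0 CPM) and cldn6.1.S (117 and 212 CPM against 138 and 222 CPM) were near their control levels.

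The share of cldn6 copies in summed claudin FPKM was 29.3% ± 0.08 (SD, n = 2) in Ptf1a caps, 10.8% ± 1.87 in controls, 12.6% ± 1.29 with Neurog2 and 13.3% ± 2.81 with the Mutant. That of cldn4 was 33.6% ± 0.33 with Ptf1a and 43.8% ± 1.66 in controls, and that of cldn1 17.9% ± 0.08 and 23.8% ± 3.16. With 2 libraries against 2 an exact permutation test cannot go below p = 0.333, so these shares are given without a test.

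**Figure D4:**
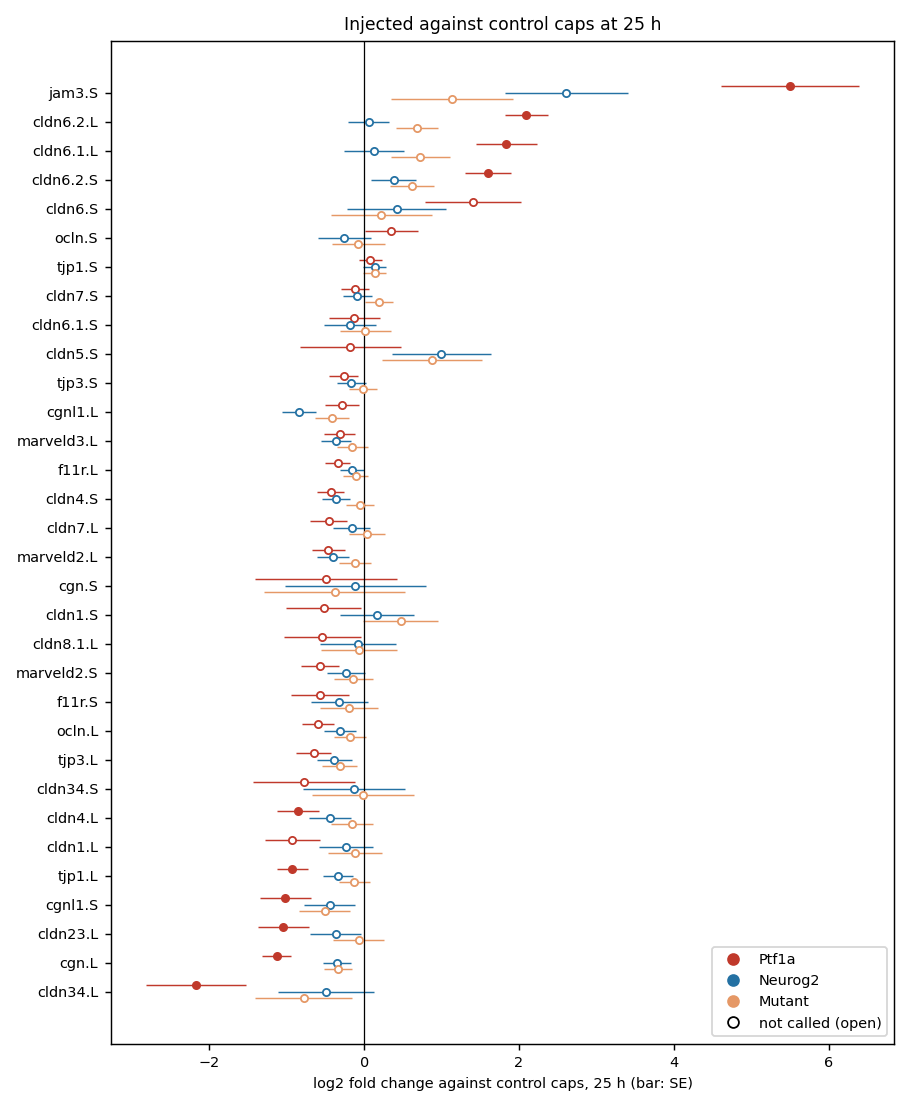
Points show the log2 fold change (bar: SE) against control caps at 25 h with Ptf1a, Neurog2 and the Mutant for 32 tested members with a mean log2 CPM above 0, with filled points for called genes. Filled points are those of Ptf1a alone, from -2.17 for cldn34.L to 5.50 for jam3.S, and the 3 comparisons share their control libraries.

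Markers of cell types moved with these differences, where 11.9% of all genes tested were higher and 8.62% lower in Ptf1a caps. Of 29 tested copies of epidermis markers 9 were lower and 2 higher in Ptf1a caps (median log2 fold change -0.81). The summed level of the 30 epidermis copies was 60884 and 82193 CPM in Ptf1a caps against 123803 and 140171 CPM in controls. Of 24 neuronal copies 23 were higher, with a sum of 1834 and 1967 CPM against 59.4 and 82.6 CPM and 0 copies at 0 in Ptf1a caps and 4 in controls. Neural crest copies were higher in 14 of 16 (474 and 629 CPM against 150.0 and 134 CPM), and those of multiciliated cells lower in 15 of 22 (325 and 315 CPM against 1372 and 1534 CPM). Of ionocyte and small secretory cell copies 2 were higher and 8 lower of 16, of endoderm copies 2 and 4 of 19, and of mesoderm copies 5 and 1 of 19. In bulk caps fewer cells of a type and less RNA per cell cannot be told apart, and the part of cell composition in the junction results was not tested.

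Among the 56 other tight junction and polarity copies 9 rose and 10 fell with Ptf1a at 25 h, where 11.9% of all genes rose and 8.62% fell. Named by size of change, ildr2.S, a gene of an angulin of tricellular junctions, had 6.01 ± 1.16 CPM (SD, n = 2) against 0.545 ± 0.186 in controls (3.48 ± 0.51, adjusted p = 0.00078, edgeR). The other large differences were in crb2.L (2.76 ± 0.73), amotl1.S (2.39 ± 0.35) and llgl1.L (1.44 ± 0.22). Lower ones included pard6b.S, at 56.4 ± 15.6 against 148 ± 16.2 CPM (SD, n = 2, -1.39 ± 0.21, adjusted p = 0.00093, edgeR). Another was prkcz.L, at 27.8 ± 0.68 against 70.6 ± 5.09 CPM (SD, n = 2, -1.35 ± 0.21, adjusted p = 0.0012, edgeR). Both are copies of genes of the apical Par complex and were named beyond the most changed copies. The other Par complex copies of the list are not described here. Of 30 copies of epithelial regulators 10 fell and 0 rose, klf5.S by 1.85 ± 0.40 and grhl1.S by 1.47 ± 0.37 on the log2 scale, both factors of surface epithelia. Of 31 adherens junction and desmosome copies 5 rose, led by cdh2.S (5.99 ± 0.82) and cdh2.L (4.30 ± 0.63), the copies of N-cadherin, and 8 fell.

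With Neurog2 at 25 h 0 of the 45 genes were called by edgeR, where 2.98% of all genes were higher and 0.105% lower. An unadjusted p under 0.05 was found for 4 of the 45, against 3685 of all genes tested. Among others, DESeq2 called jam3.S higher (2.55, adjusted p = 0.014) and cgnl1.L lower (-0.91, adjusted p = 0.01). The most abundant member, cldn4.L, had 1092 and 1099.8 CPM with Neurog2 against 1362 and 1615 CPM in controls. The level of cgnl1.L was 5.99 and 5.14 CPM against 11.4 and 8.40 CPM (-0.84 ± 0.22, adjusted p = 0.067, edgeR). With replicates paired within each time it was called (adjusted p = 0.015, edgeR). Of jam3.S there were 1.92 and 5.90 CPM (2.61 ± 0.80, adjusted p = 0.13, edgeR), both above the controls. The neuronal marker sums of the same libraries were 1133 and 4221 CPM, with 20 of 24 copies called higher. Both the neuronal sum and jam3.S were higher in replicate 2. Ptf1a caps of 25 h had lower neuronal sums than this replicate 2 and higher levels of jam3.S. Whether jam3.S and the neuronal markers are related was not tested.

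The Mutant too gave 0 calls among the 45 genes at 25 h by edgeR and 0 by DESeq2. By edgeR 0.803% of all genes were higher and 0.0329% lower. An unadjusted p under 0.05 was found for 2751 of all genes tested and for 1 of the 45. That gene, cldn6.2.L, had 109 and 52.7 CPM against 46.6 and 54.1 CPM (0.68 ± 0.27, adjusted p = 0.41, edgeR). Its replicate 1 lay above both controls and its replicate 2 between them. The same was seen in cldn6.1.L, at 11.9 and 5.81 CPM against 4.77 and 5.93 CPM. The level of jam3.S was 2.47 and 0.393 CPM. Neuronal marker sums were 1688 CPM in replicate 1 and 510.4 CPM in replicate 2, with 14 of 24 copies called higher, and their part in these differences was not tested. The most abundant member, cldn4.L, had 1302 and 1369.8 CPM with the Mutant.

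**Figure D5:**
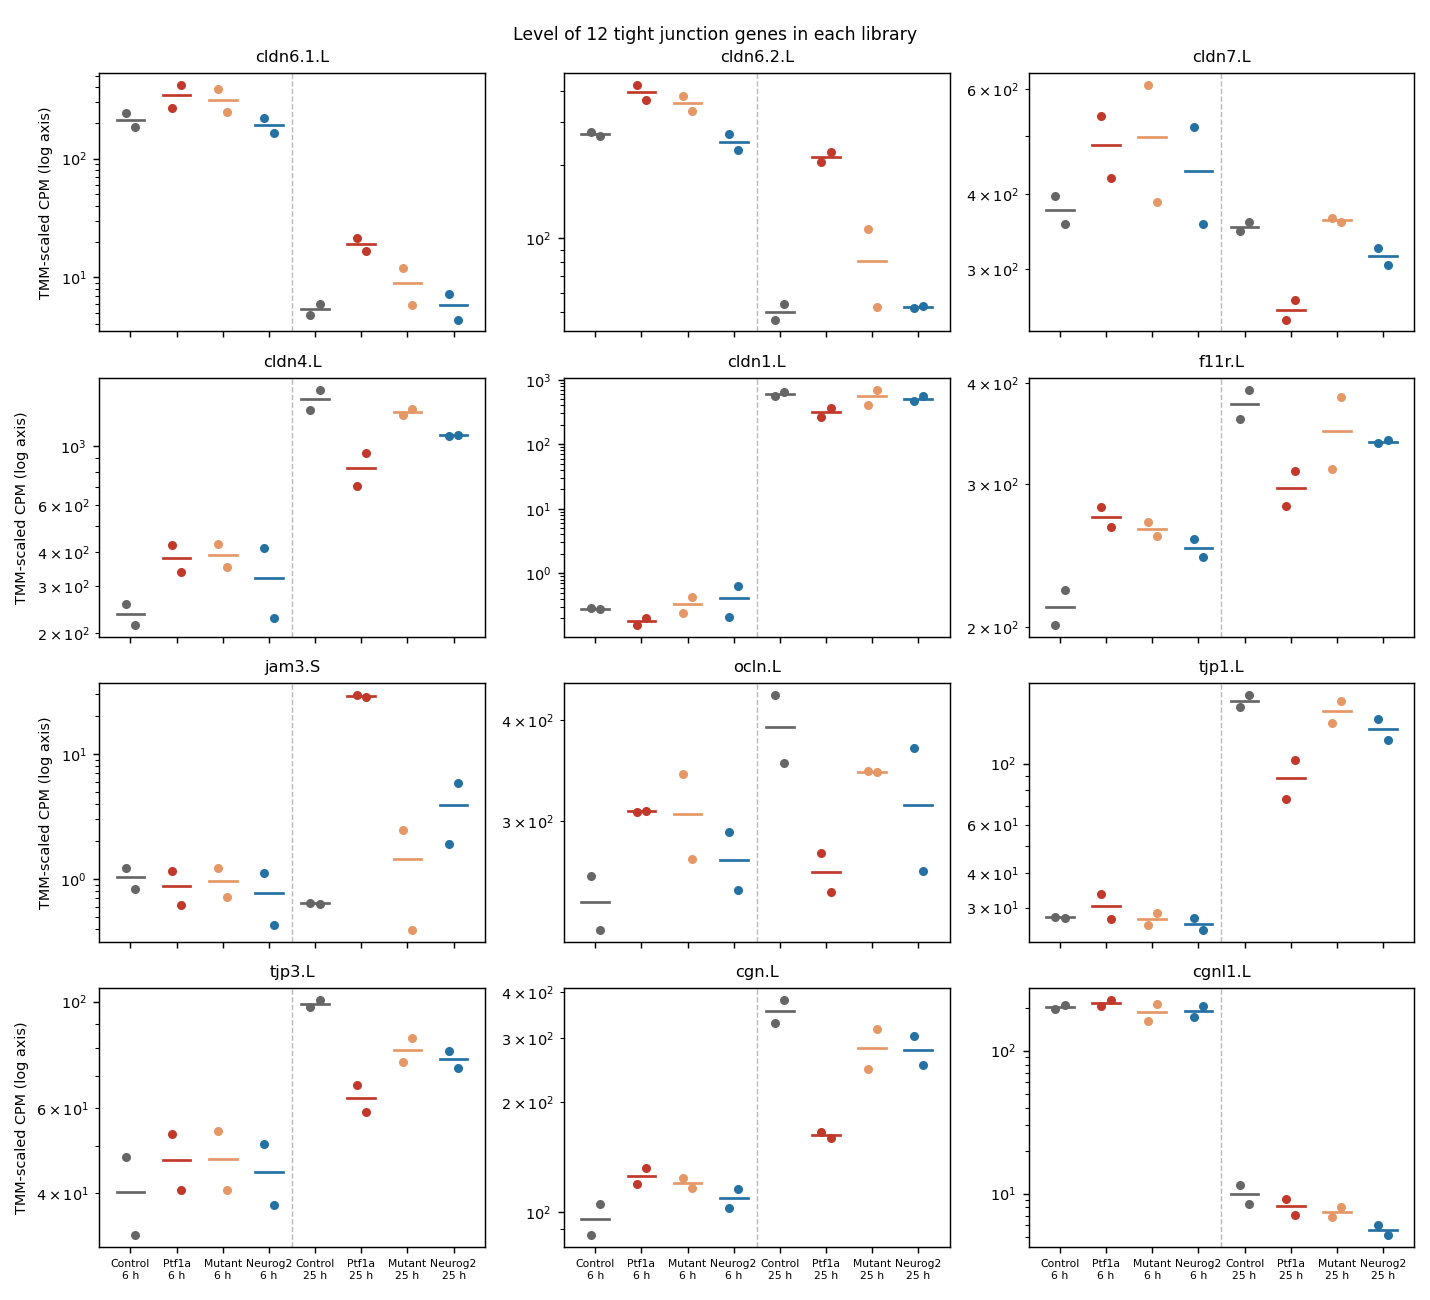
Points show the TMM-scaled CPM (log axis, scaled for each gene) of 12 members in each library, with a line at the mean of the 2 libraries of a group and a dashed line between 6 h and 25 h. In jam3.S the 2 Ptf1a libraries of 25 h, at 29.5 and 28.4 CPM, lie above the other 14, and in cldn1.L all 8 libraries of 25 h, from 265 to 693 CPM, lie above all 8 of 6 h.

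Compared directly with the Mutant at 25 h, Ptf1a caps had 3 higher and 2 lower genes of 45, where 4.40% of all genes were higher and 3.81% lower. Higher were jam3.S (29.5 and 28.4 against 2.47 and 0.393 CPM, 4.36 ± 0.83, adjusted p = 0.0095, edgeR), cldn6.2.L (205 and 224 against 109 and 52.7 CPM, 1.41 ± 0.27, adjusted p = 0.0095, edgeR) and jam3.L. For jam3.L there were 150 counts against 1, a count ratio of 90.4 with an exact 95% interval of 15.98 to 3594. Lower were cgn.L (165 and 159 against 246 and 317 CPM, -0.80 ± 0.18, adjusted p = 0.022, edgeR) and tjp1.L (74.4 and 103 against 140.4 and 169 CPM, -0.80 ± 0.20, adjusted p = 0.028, edgeR). With the replicate block 5 were higher, cldn6.2.S and cldn6.1.L added, and 6 lower, with cldn23.L, cldn1.L and cldn34.L among those added. These block counts stand without the count of all genes and describe the setting alone. In the fit without a block each of the 5 calls was lost without Mutant replicate 2 (log2 fold changes of 3.55 for jam3.S and 0.98 for cldn6.2.L). Lost too were cgn.L without either Ptf1a library, tjp1.L without Ptf1a replicate 1, and jam3.L without any 1 of the 4 libraries.

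Against Neurog2 at 25 h, Ptf1a caps had 4 higher genes and 1 lower, where 5.13% of all genes were higher and 4.19% lower. The higher ones were jam3.S (29.5 and 28.4 against 1.92 and 5.90 CPM, 2.89 ± 0.77, adjusted p = 0.036, edgeR), cldn6.2.L (205 and 224 against 51.9 and 52.9 CPM, 2.03 ± 0.27, adjusted p = 0.0013, edgeR), cldn6.1.L (1.71 ± 0.39) and cldn6.2.S (1.22 ± 0.29). The lower one was cgn.L (165 and 159 against 304 and 253 CPM, -0.78 ± 0.18, adjusted p = 0.021, edgeR). Of these cldn6.2.L alone was kept in every alternative run. The calls of jam3.S, cldn6.2.S and cgn.L were lost without either Ptf1a library or Neurog2 replicate 1 (adjusted p from 0.06 to 0.22, edgeR), and that of cldn6.1.L without Ptf1a replicate 1 or Neurog2 replicate 2. With the replicate block 7 were higher, with ocln.S, jam2.L and jam2.S added, and 3 lower, with cldn23.L and cldn34.L added. The count of all genes with the block is not given here, so these numbers describe the setting alone.

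Between the Mutant and Neurog2 at 25 h 0 members were called by edgeR and 0 by DESeq2. By edgeR 0.00658% and 0.00329% of the whole table were called higher and lower. An unadjusted p under 0.05 was found for 2 members, against 1303 of all genes tested. At 6 h the comparisons of Ptf1a with the Mutant, Ptf1a with Neurog2 and the Mutant with Neurog2 also gave 0 by each tool. There 1, 4 and 0 members had an unadjusted p under 0.05, against 500, 843 and 716 of all genes tested. Of all genes 0.0296%, 0.125% and 0.00658% were called higher in these comparisons and 0.00329%, 0.0132% and 0.00658% lower.

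Whether the difference from control caps itself changed between 6 h and 25 h was tested as an interaction. For Ptf1a 2 genes were more positive at 25 h and 6 more negative, where 4.47% and 5.34% of all genes were. The positive ones were jam3.S (5.72 ± 1.12, adjusted p = 0.0089, edgeR) and cldn6.2.L (1.52 ± 0.38, adjusted p = 0.026, edgeR). Of the negative ones cgn.L had the smallest adjusted p (-1.52 ± 0.26, adjusted p = 0.0046, edgeR). In cgn.L Ptf1a caps had 119 and 132 CPM against 86.5 and 105 CPM at 6 h, above the controls, and 165 and 159 against 331 and 381 CPM at 25 h, below them. The same order was seen in cldn4.L (-1.55 ± 0.38, adjusted p = 0.025, edgeR) and cldn4.S (-1.14 ± 0.25, adjusted p = 0.016, edgeR). With the replicate block 10 genes were more negative, with ocln.L (-0.97), f11r.L (-0.72), tjp3.L (-0.89) and cldn23.L (-1.29) added, and 3 more positive, with cldn6.2.S (1.27) added. Here too the count of all genes with the block is not given, and the numbers describe the setting alone. For Neurog2 and the Mutant 0 interactions were called among the members by edgeR. An unadjusted p under 0.05 was found for 5 and 3 members, against 2759 and 2457 of all genes tested. Both cldn34.L and cldn4.L were among them in each comparison, more negative at 25 h as with Ptf1a. DESeq2 called 0 for Neurog2 and 1 for the Mutant, cldn34.L (-3.64, adjusted p = 0.026), which had 4 and 0 counts in the 6 h controls. Of all genes 0.207% and 0.0724% were more positive with Neurog2 and the Mutant and 0.0889% and 0.122% more negative.

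Over the 16 libraries the genes with a symbol whose log2(CPM + 0.5) followed cldn4.L most closely were jup.L (plakoglobin, a junction protein of desmosomes and adherens junctions), arf4.S, rab18.S, dlx3.L and sec61b.L. Their Pearson r ranged from 0.987 to 0.990. The libraries share 2 times and 4 kinds of cap, so these values describe the set and carry no test.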

How the data were processed

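The authors deposited 1 table of raw gene counts per library, made with featureCounts per the submitters' processing notes, which also name CASAVA 1.8, STAR 2.5 and DESeq2 1.8. Strandedness and the handling of multi-mapping reads are not given in the sources used here. Gene positions and exon lengths came from an annotation of build 9.1 in which all 59 genes have 1 record of the same name. For 9 of them that record has no annotated UTR.

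From the counts, edgeR 4.0.16 in R 4.3.3 (TMM, filterByExpr by group, glmQLFit with robust estimation, glmQLFTest) was fitted to 30384 genes with a mean per group over all 16 libraries, which leaves 8 residual degrees of freedom. SE is the log2 fold change divided by the root of F, the prior count was 0.125, with Benjamini-Hochberg adjustment of p across the genes tested in a comparison. CPM and FPKM were computed here, with mean ± SD over 2 libraries. Tested on simulated data for Ptf1a against control at 25 h (29306 genes fitted), the fit called 82% of genes changed by 2 and 98% of genes changed by 4 on the log2 scale. It called 7 of 29106 unchanged genes. Smaller changes were not simulated, and 50 genes were changed at each value, far fewer than were called in the real data. The simulation thus gives neither the power for smaller changes nor the rate of false calls in these data. Reads were amplified by PCR and carry no molecular identifiers, so intervals and floors cover counting error only.

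Alternatives were DESeq2 1.42.0 (size factors, Wald test), no filter on low counts, the 8 libraries of a time, leaving out each library, and the replicate number as a block. The labels number replicates 1 and 2 in each group without saying what the number marks. In the data the deviations of replicates 1 from their group means correlated across genes in all 28 pairs of groups (0.11 to 0.834). The correlation was higher within a time (median 0.63) than between times (median 0.169). The numbers were therefore taken to pair the libraries, but only in the alternative fits with a block. The main fit has no block, so its calls, SE and adjusted p ignore this pairing. A block within each time and summed L and S copies were added after seeing the data. The members, gene lists and tests were chosen with earlier results of these data known. Counts of members cover all 59 genes, and the individual values of some are not reported here. Named in full were the most changed called members of each comparison with a mean log2 CPM above 0, the most abundant member where none was called, the 2 most abundant of each role, and the 4 most changed genes of the other junction list. Some further genes of the lists were named beyond this rule.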

Additional observations from a re-analysis of the deposited data

Results flagged for a closer look

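The difference between Ptf1a and control caps changed between 6 h and 25 h in 8 tight junction genes, of which 7 are described, by edgeR's interaction test with Benjamini-Hochberg adjustment over 30384 genes, and these are listed because the 2 times differ. The effect at 25 h minus that at 6 h was 5.72 in log2 units for jam3.S and 1.52 for cldn6.2.L. It was -3.73 for cldn34.L, -1.55 for cldn4.L, -1.52 for cgn.L, -1.14 for cldn4.S and -1.07 for tjp1.L. In the same order of genes the values were 1.23, 0.26, -3.61, -0.88, -0.66, -0.37 and -0.11 for the Mutant. For Neurog2 they were 3.01, 0.16, -2.70, -0.89, -0.54, -0.42 and -0.27. These had the same signs as with Ptf1a and were not called by edgeR, and the comparisons share their control libraries. For cldn34.L the 6 h part rests on few counts, 34 and 10 with Ptf1a and 4 and 0 in controls. Without any 1 of the 8 libraries involved, jam3.S and cgn.L kept their calls. The other 5 described each lost theirs without at least 4 of the 8: cldn34.L without 7 (adjusted p from 0.067 to 0.15), cldn6.2.L without 7 (0.062 to 0.1), cldn4.L without 6 (0.051 to 0.095), tjp1.L without 6 (0.069 to 0.14) and cldn4.S without 4 (0.051 to 0.07).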

How the results depend on the processing

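No called member changed sign in any alternative. Calls kept in every alternative were 20 of 27 in control caps over time, 6 of 12 for Ptf1a against control at 25 h (among them jam3.S, cldn6.2.L, cldn6.2.S, cgn.L and tjp1.L), 0 of 5 against the Mutant, 1 of 5 against Neurog2 and 2 of 8 for the Ptf1a interaction. Leaving out 1 library, where the lone library of a group is assumed to vary like the others, gave 13 to 17 higher and 8 to 11 lower genes in control caps over time. It gave 3 to 6 higher and 3 to 5 lower for Ptf1a against control at 25 h, 0 to 4 and 0 to 2 against the Mutant, 1 to 4 and 0 to 1 against Neurog2, 0 to 1 higher for the Mutant against control at 25 h, and 1 to 2 more positive and 1 to 5 more negative for the Ptf1a interaction. With the replicate block Ptf1a had 5 higher and 6 lower genes than the Mutant, 7 and 3 than Neurog2, and 10 more negative interactions. With replicates paired within each time the counts were 7 higher and 15 lower for Ptf1a against control at 25 h. They were 1 higher at 6 h for Ptf1a and 1 for the Mutant, and 2 lower for Neurog2 at 25 h. For Ptf1a they were 6 higher and 9 lower against the Mutant, and 9 higher and 6 lower against Neurog2. More negative interactions numbered 12 for Ptf1a and 1 for the Mutant. That block does not pair 6 h with 25 h libraries. Its counts of 17 higher and 15 lower in control caps over time are therefore not read as changes. With DESeq2's size factors 11 members were lower for Ptf1a at 25 h, and 3350 of all genes against 2619 in the main fit. DESeq2's Wald test gave 14 lower there, 1 higher and 2 lower for Neurog2, 6 lower against the Mutant, 3 lower against Neurog2 and 1 more negative interaction of the Mutant. The 8 libraries of 25 h alone gave 2 higher and 2 lower against Neurog2. Here and in the paragraphs above, member counts under an alternative setting mostly stand without the count of all genes. They describe the setting and are not read as results about the members. Where both are given, for the lower genes with Ptf1a at 25 h, the count of all genes rose too. The cause of these changes was not tested, and fewer libraries leave fewer degrees of freedom. DESeq2's size factors moved the median log2 fold change of all genes from 0.15 to 0.00 for Ptf1a against control at 6 h and from 0.12 to -0.02 against Neurog2 at 6 h. Genes under about 1 CPM, such as jam2, cldn3 and cldn18 copies, rest on few counts.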

Other observations

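At 6 h several tight junction genes differed between replicates 1 and 2 in the same direction in all 4 kinds of cap, which was noticed after seeing the data and not tested. The level of cgn.S was 3.99 to 6.12 CPM in replicates 1 and 20.3 to 23.1 CPM in replicates 2. For f11r.S the values were 219 to 283 CPM in replicates 1 and 147 to 179 CPM in replicates 2. At 25 h cgn.S showed no common direction, and f11r.S was higher in replicate 2 in all 4 kinds of cap.

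JAM-B, a binding partner of JAM-C, is encoded by jam2. The level of jam2.L was 1.29 and 1.39 CPM in Ptf1a caps of 25 h and at most 0.288 CPM in the other 14 libraries, without a call against control caps (2.40 ± 1.05, adjusted p = 0.13, edgeR). For cldn3.L, whose neighbour on chromosomes 2L and 2S is cldn4, levels at 25 h were 2.03 and 4.12 CPM with Ptf1a, 2.29 and 1.31 with the Mutant, 0.226 and 2.48 with Neurog2 and 0.113 and 1.04 in controls, without a call (2.48 ± 1.18, adjusted p = 0.17, edgeR). With replicates paired within each time cldn3.L was called higher with Ptf1a (2.81, adjusted p = 0.028, edgeR).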
